A study of Mus musculus with 8 samples.

Results

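Carbonic anhydrases, the zinc enzymes that interconvert carbon dioxide and bicarbonate, were examined in mouse tibialis anterior muscle by 10 genes of the 23930 in the expression table: Car1, Car2, Car3, Car4, Car5b, Car8, Car9, Car12, Car13 and Car14. The genes were chosen by family name, with the differences between knockout and control libraries already known, so those differences are given as a description of this family and not as independent evidence. Which measured value decided the choice within the family is not recorded. Of the other carbonic anhydrase genes, Car5a, Car6, Car7, Car10 and Car11 are in the table and are shown beside the 10, and Car15 is not analysed here. Levels ran from 0.34 RPM (panel reads scaled to a total of 1000000 per library) for Car12 to 7026 RPM for Car3, as means over all 8 libraries.

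The study compared 4 knockout libraries (KO) with 4 control libraries (WT) of total RNA. The KO mice carried a floxed Sdhc, which encodes a membrane anchor of succinate dehydrogenase, and the HSA-Cre recombinase, which tamoxifen activates in skeletal muscle fibres. The WT mice were littermates with HSA-Cre and no floxed allele. All mice, WT included, received tamoxifen when 12 weeks old, and the muscle was removed after another 20 weeks. The labels write the background of the WT libraries as C57BL/6, that of KO 1 as C57BL/7 and that of KO 2 to KO 4 as C57BL/8, while the protocol names C57/B6 for all. Whole muscle also holds vessels, blood, nerve and connective tissue in which HSA-Cre is not active, and in such RNA fewer cells of a type and less RNA per cell cannot be told apart. The labels do not say whether every library came from its own animal, and p-values therefore reflect the scatter of these 8 libraries, which may be technical.

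Library totals ran from 4774602 to 7281574 panel reads, so that 3 reads, the floor used here for detection, stood for 0.412 to 0.628 RPM. The targeted gene, Sdhc, averaged 696 ± 91.8 RPM in WT, and its KO mean of 26 ± 16 RPM was 3.73% of that (SD, n = 4 each). An exact permutation test, two-sided, gave p = 0.0286, the smallest that 4 against 4 allows. Xist, the RNA of the inactive X chromosome, reached 77.3 RPM in WT 1 and 98.9 RPM in KO 4 and was at most 0.334 RPM elsewhere, and the Y-linked Ddx3y showed the reverse. Values without these 2 libraries are also given for Car1, Car3, Car4, Car5b, Car9, Car11 and Car14 and for the marker calls that change. Of the 11087 genes that reached 1 RPM in 4 or more libraries, limma on log2(RPM + 1) called 58 higher in KO (0.523%) and 31 lower (0.28%) at a Benjamini-Hochberg adjusted p under 0.05, against 37 higher and 54 lower after TMM rescaling. At an unadjusted p under 0.05, 13.1% of these genes were higher and 3.07% lower, the shares beside which each unadjusted count below stands. The median tested gene lay 0.13 higher in KO on the log2 scale, and 0.005 higher after TMM rescaling, so log2 differences below are relative to the median of their own fit. Their SE and p come from the deposited scale.

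Carbonic anhydrases let muscle move carbon dioxide, bicarbonate and protons between mitochondria, cytosol and blood. The cytosolic forms include the fast Car1, Car2, Car7 and Car13 and the slow Car3, one of the most abundant soluble proteins of slow fibres. Car5a and Car5b work inside mitochondria, where bicarbonate feeds pyruvate carboxylase. Car4 is tied to the outer cell membrane by a lipid anchor and Car9, Car12 and Car14 cross the membrane with the enzyme outside. Car6 is secreted. Car8, Car10 and Car11 are related proteins that lack the zinc site and do not catalyse the reaction. Car9 is a textbook target of hypoxia-inducible factor (HIF), and in the human gene HIF binds next to the transcription start.

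The promoter of Car9 is shown because Car9 had the largest log2 difference of the tested carbonic anhydrases and because the letters of that element's core occur in it. Sequences for 5 of the 10 genes (Car4, Car5b, Car9, Car12 and Car14) were found in the RefSeq promoter table for GRCm38.p6, which spans 250 bases before to 50 bases after each start. The Car9 window is chr4:43506776-43507075 on the plus strand, and capitals mark the core letters of the hypoxia response element, ACGTG, which here lies on the opposite strand and so reads CACGT.
Car9 promoter: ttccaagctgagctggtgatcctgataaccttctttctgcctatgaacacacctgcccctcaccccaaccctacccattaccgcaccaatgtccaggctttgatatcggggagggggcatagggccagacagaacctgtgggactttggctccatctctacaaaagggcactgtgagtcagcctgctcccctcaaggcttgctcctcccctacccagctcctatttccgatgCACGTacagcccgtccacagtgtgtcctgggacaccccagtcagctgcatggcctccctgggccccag

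The same core was present in 3 of the 5 promoters, each time on the strand opposite to the gene. The 3 windows are set side by side, each 29 bases with the core in capitals.
Car9 window: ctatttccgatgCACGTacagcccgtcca
Car14 window: cacccccctcctCACGTacaccggtttcg
Car4 window: ggagccgactccCACGTctagccgtccgg
The core lies 18 to 14 bases before the start of Car9, 7 to 3 bases before the start of Car14 and at bases 3 to 7 after the start of Car4, counted from the RefSeq starts that the windows are built on. The GENCODE M21 gene starts used for gene positions here differ from these: that of Car9 lies 60 bases and that of Car14 6 bases further upstream, and that of Car4 32 bases further downstream. By the GENCODE starts the Car9 core is therefore inside the gene and the Car4 core before it. On either strand ACGTG occurred in 19.6% of all 32851 promoter windows, and ACGTG or the related GCGTG in 43.8%. Car5b held GCGTG 5 times over both strands and Car12 held neither. A match describes letters in this window and not a bound site, and Car14 and Car4, which hold the core, did not pass the test between KO and WT.

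Of the 10 genes, 8 passed the filter on low values, and of these limma called 2 higher in KO, Car9 and Car1, and none lower. The share called among all tested genes was 0.523% higher and 0.28% lower, and nothing is read from the comparison because the family was listed with these calls known. At an unadjusted p under 0.05 in limma on the deposited scale there was 1 more, Car2, also higher. There were still none lower, where 13.1% of all tested genes were higher and 3.07% lower. In DESeq2, Car2 was higher (unadjusted p = 0.0403) and Car3 lower (unadjusted p = 0.0373), with adjusted p of 0.375 and 0.359. The same 2 genes, and no others of the family, were called by edgeR and by DESeq2 on reads recovered from the RPM steps, and in each of the 21 alternative fits.

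Among the cell-surface forms, Car9 was the gene that passed the test. It lies at chr4:43506966-43513729 on the plus strand (GENCODE M21, GRCm38, as for all genes below). The WT libraries 1 to 4 held 3.24, 2, 1.43 and 1.94 RPM, from 10 to 23 reads each. The KO libraries 1 to 4 held 7.89, 7.96, 15.2 and 12.5 RPM, from 38 to 91 reads each. All KO libraries lay above all WT libraries, and KO 3 and KO 4 lay well above KO 1 and KO 2. Even the nearest pair, WT 1 and KO 1, had exact 95% binomial intervals that did not meet (2.06 to 4.87 RPM against 5.81 to 10.5 RPM, counting error only). The mean rose from 2.15 ± 0.771 to 10.9 ± 3.58 RPM (SD, n = 4 each), a ratio of 5.05. The relative log2 difference was 1.77 (SE 0.24, 95% interval 1.27 to 2.27, limma adjusted p = 7.30e-04). At these low levels the added 1 RPM shrinks the difference, and edgeR, which adds far less, gave 2.17. Without the 2 libraries with Xist, Car9 stood at 1.79 ± 0.317 RPM in WT and at 10.3 ± 4.18 RPM in KO (n = 3 each, relative log2 difference 1.85). Gm12454 overlaps Car9 on the other strand, and no source used here says whether reads were counted by strand, so its reads cannot be told apart from those of Car9.

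**Figure D1:**
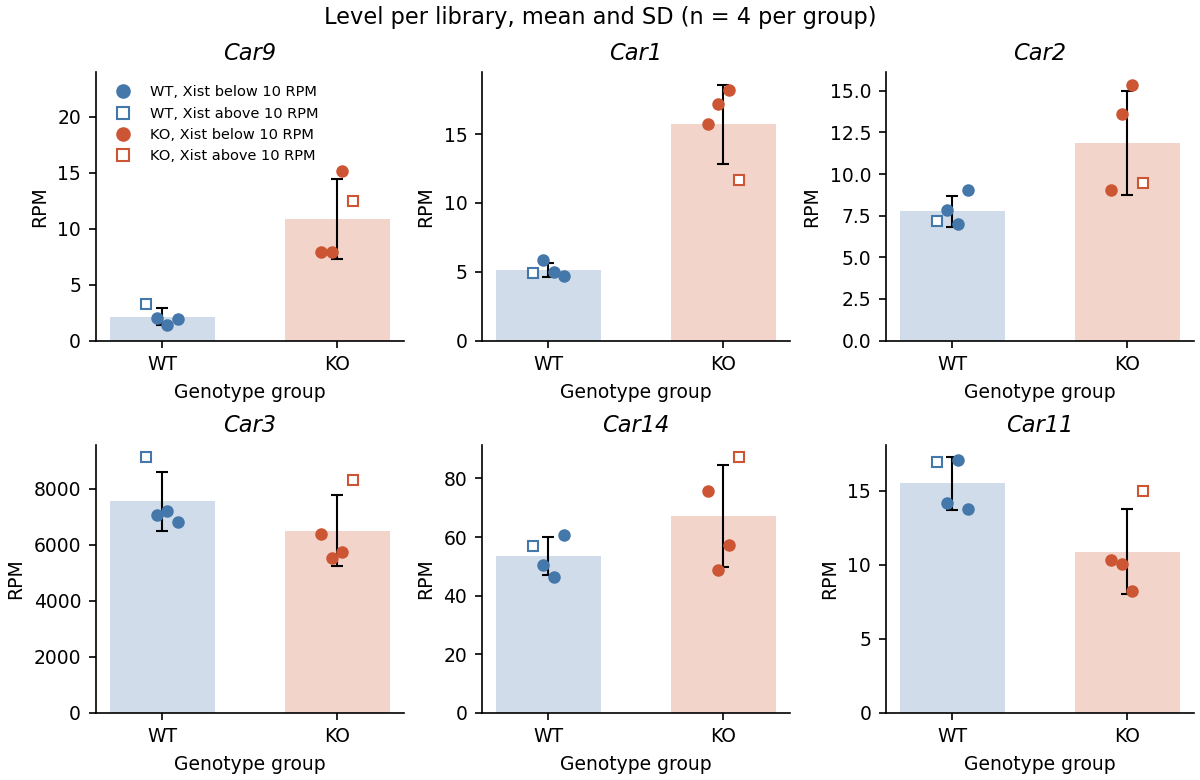
Level of 6 carbonic anhydrase genes in RPM (y axes, from 0) in the WT and KO groups. Bars are means, error bars are SD over 4 libraries, points are libraries, and open squares are the 2 libraries with Xist above 10 RPM. The groups of Car9 and Car1 do not overlap, while in Car3 and Car11 the open KO square lies among the WT points.

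Car14 (chr3:95897768-95904691, minus strand), a sarcolemmal enzyme of muscle with the highest RPM of the cell-surface forms, did not pass. It was at 57, 50.4, 46.2 and 60.7 RPM in WT 1 to 4 and at 75.7, 48.8, 57.1 and 87.2 RPM in KO 1 to 4, so the groups overlapped, with KO 1 and KO 4 above every WT library. The relative log2 difference was 0.17 (SE 0.17, 95% interval -0.2 to 0.53, limma adjusted p = 0.411), and 0.07 in the 6 libraries without Xist. Car14 overlaps Aph1a on the other strand.

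Car4 (chr11:84957786-84966044, plus strand), the lipid-anchored form known from capillary endothelium and the sarcolemma, lay between 5.34 and 7.29 RPM in WT and between 4.76 and 10.4 RPM in KO. The WT range fell inside the KO range, and KO 4 and KO 3 (8.74 RPM) were highest. Its relative log2 difference of 0.09 (SE 0.21, 95% interval -0.36 to 0.54, limma adjusted p = 0.645) went to -0.1 without the libraries with Xist. The 12 endothelial markers, which include Pecam1, Cdh5 and Esam, summed to between 477 and 639 RPM in WT and between 685 and 863 RPM in KO. With TMM rescaling these sums were 534 to 640 RPM in WT and 667 to 802 RPM in KO, still without overlap. All 12 had positive relative log2 differences and none passed in limma or edgeR, with 7 higher in limma at an unadjusted p under 0.05 (13.1% of all genes). In the 6 libraries without Xist, Cdh5 and Esam passed (limma adjusted p = 0.0253 and 0.0437), 2 of the 12, where 2.32% of all genes were called higher. Their part in the level of Car4 or Car9 was not tested. Car12 (chr9:66713686-66766845, plus strand), a form of kidney and other epithelia, stayed at or below 5 reads in every library. Its highest value was 0.892 RPM in KO 3, and it was above the floor of 3 reads there only, so no difference could be measured at this depth.

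Among the cytosolic forms, Car1 was called and Car2 was not. Car1, best known from red cells and the colon, was at 4.94, 5.84, 4.99 and 4.7 RPM in WT 1 to 4, from 29 to 35 reads each. In KO 1 to 4 it was at 15.8, 17.2, 18.2 and 11.7 RPM, from 82 to 102 reads each. The WT values were the tightest of any tested carbonic anhydrase in that group, with a coefficient of variation of 9.79%. Counting error alone was wider than their range (exact 95% binomial interval 3.1 to 6.7 RPM in WT 4), so the tightness is not read as a trait of Car1. The KO library nearest to the WT values was KO 4, one with Xist. The mean rose from 5.12 ± 0.501 to 15.7 ± 2.87 RPM (SD, n = 4 each), a ratio of 3.07 and a relative log2 difference of 1.31 (SE 0.18, 95% interval 0.94 to 1.68, limma adjusted p = 7.17e-04). Without the libraries with Xist the KO level was 17.1 ± 1.22 RPM and the WT level 5.18 ± 0.596 RPM (n = 3 each).

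Since Car1 is abundant in red cells, erythroid markers are given beside it. The 8 markers in the table summed to between 75.4 and 92.8 RPM in WT and between 77.6 and 108 RPM in KO, ranges that overlap, and none was at 0 in every library. None of the 3 tested markers passed in limma or edgeR or reached an unadjusted p under 0.05. Most of the sum was Bpgm, an enzyme of red-cell glycolysis that other tissues also express. The heme synthesis gene Alas2 was at 14.7 ± 4.71 RPM in WT and at 17.6 ± 4.61 RPM in KO (relative log2 difference 0.13, limma adjusted p = 0.571). The erythrocyte anion exchanger Slc4a1 was at a mean below 1 RPM in both groups. KO 4 had the lowest erythroid sum of the KO libraries and also their lowest Car1, whereas WT 4 had the highest erythroid sum of the WT libraries and their lowest Car1. The part of blood in the Car1 difference was not tested. Globin genes are not analysed here.

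Car2, a fast and widespread cytosolic enzyme, was at 7.19, 7.85, 6.99 and 9.07 RPM in WT 1 to 4 and at 9.04, 13.6, 15.3 and 9.48 RPM in KO 1 to 4. KO 2 and KO 3 stood apart upward, while KO 1 fell just below WT 4. The means of 7.77 ± 0.938 and 11.9 ± 3.1 RPM gave a relative log2 difference of 0.4 (SE 0.19, 95% interval -0.002 to 0.8, limma adjusted p = 0.195). Car13, the fourth gene of this class, was measured by 0 to 10 reads per library. It was above the floor in WT 2, WT 4, KO 2, KO 3 and KO 4, with its highest value, 1.78 RPM, in KO 3, and it was too low to be tested.

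Car3 outweighed every other carbonic anhydrase transcript and ranked between 14 and 20 among all 23930 amplicons in each library. It was at 9125, 7072, 7206 and 6806 RPM in WT 1 to 4 and at 6403, 5527, 5750 and 8319 RPM in KO 1 to 4. In each group the library with Xist was the highest, and KO 4 lay above 3 of the 4 WT libraries. Over all 8 libraries the WT mean was 7552 ± 1062 RPM and the KO mean 6500 ± 1269 RPM. The relative log2 difference was -0.35 (SE 0.16, 95% interval -0.69 to -0.01), so Car3 lay below the median gene. The limma adjusted p of 0.497 belongs to the unshifted difference of -0.23 on the deposited scale (95% interval -0.57 to 0.11). With TMM rescaling the unadjusted limma p was 0.0683 and the adjusted p 0.423. In the 6 libraries without Xist the groups separated, at 7028 ± 204 RPM in WT and at 5893 ± 456 RPM in KO (n = 3 each), a KO level of 83.9% of WT. That difference still did not pass in the fit of those libraries (relative log2 difference -0.38, limma adjusted p = 0.343), nor in a fit of all 8 with a term for Xist (adjusted p = 0.387).

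The fit of the 6 libraries called 2.32% of 11110 genes higher and 1.31% lower, and the fit with an Xist term called 1.49% higher and 0.631% lower. Both called Car9 and Car1 and no other carbonic anhydrase. In those 6 libraries 18.1% of genes had all 3 KO libraries above all 3 WT libraries and 6.32% had them all below, so the separation of Car3 is a pattern that many genes share. In all 8 libraries 7.5% of genes lay above and 1.61% below without overlap, and among the 8 tested carbonic anhydrases of the list these were Car9 and Car1, above, and none below.

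Car3 is also high in fat cells and in slow fibres, whose markers are given here. The 10 adipocyte markers summed to between 235 and 376 RPM in WT and between 384 and 507 RPM in KO. Most of that sum was Fabp4, which capillary endothelium also makes and which rose from 194 ± 31.2 to 302 ± 31.5 RPM (relative log2 difference 0.52, limma adjusted p = 0.0404; edgeR adjusted p = 0.0857, which did not pass). After TMM rescaling the adipocyte sums overlapped, at 241 to 393 RPM in WT and 366 to 494 RPM in KO. The defining adipocyte genes Adipoq, Lep and Plin1 stayed below 1 RPM on average in both groups and were not tested. Of the 5 adipocyte markers that were tested, limma called Fabp4 alone, where 0.523% of all genes were called higher. The tested markers besides Fabp4 also added to the sum, and none of them reached an unadjusted p under 0.05. The median relative log2 difference of the 5 was 0.04. The 8 slow-fibre markers, which include Myh2 and Mb and lack Myh7, summed to between 4928 and 7569 RPM in WT and between 4430 and 6375 RPM in KO. These ranges overlap. None passed in limma or edgeR, with 4 higher at an unadjusted p under 0.05 (13.1% of all genes). Their median relative log2 difference was 0.18, with 4 of 8 above the median of all genes. Tnnc1, a troponin of slow fibres, and Atp2a2, their calcium pump, passed in the 6 libraries without Xist (limma adjusted p = 0.0255 and 0.0133). Tnnc1 also passed with the Xist term (adjusted p = 0.0465) and in DESeq2 (adjusted p = 0.0499). Of all genes, 2.32% were called higher in those 6 libraries, 1.49% with the Xist term and 83 of 11087 in DESeq2. Most of the slow-fibre sum was myoglobin, Mb. WT 1 and KO 4 were the highest of their groups in the slow-fibre sum and in the adipocyte sum, as in Car3. By the mean log2(RPM + 1) of the slow-fibre markers, which weighs Mb less, KO 1 (5.89) was above KO 4 (5.87). The 9 fast-fibre markers summed to between 131270 and 185382 RPM in WT and between 108556 and 164949 RPM in KO, and all 9 had negative relative log2 differences with none past the threshold in limma or edgeR and none at an unadjusted p under 0.05. The part of fibre makeup in the level of Car3 was not tested.

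The remaining marker lists gave 1 call, where limma called 0.523% of all tested genes higher and 0.28% lower. The macrophage gene Cd68 rose from 3.92 ± 0.865 to 9.95 ± 2.97 RPM (relative log2 difference 1.01, limma adjusted p = 0.0192), as the only one of 6 tested macrophage markers, whose list summed to between 24 and 37.9 RPM in WT and between 32.9 and 54.2 RPM in KO. Schwann cell (5 tested), satellite cell (3), fibroblast (6) and smooth muscle and pericyte markers (7) gave no call in limma or edgeR, with 1 fibroblast marker higher and 1 smooth muscle marker lower at an unadjusted p under 0.05. Each of these lists overlapped between the groups in summed RPM. Their part in the carbonic anhydrase levels was not tested.

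Car13, Car1, Car3 and Car2 are neighbours on chromosome 3 and are transcribed from a stretch of 259 kb at chr3:14641727-14900770. Car1 (chr3:14766216-14808368) lies on the minus strand, where Gm16399 overlaps it. Car13 (chr3:14641727-14663002), Car3 (chr3:14863512-14872523) and Car2 (chr3:14886273-14900770) lie on the plus strand. Over all 8 libraries Car1 was called, Car2 and Car3 were not, and Car13 was too low to test. The KO mean was 3.07 times the WT mean for Car1, 1.53 times for Car2, 2.13 times for Car13, on 24 against 12 reads in all, and 0.861 times for Car3. Differences between these genes in their response were not tested. Their mean levels ran from 0.745 RPM for Car13 to 7026 RPM for Car3. The longest run of identical bases between annotated transcripts was 30 within the cluster, between Car2 and Car13, and 32 over all pairs of carbonic anhydrase genes, between Car5a and Car5b. Amplicon positions are not stated in any source used here, so whether a read could match a pair of genes was not tested.

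**Figure D2:**
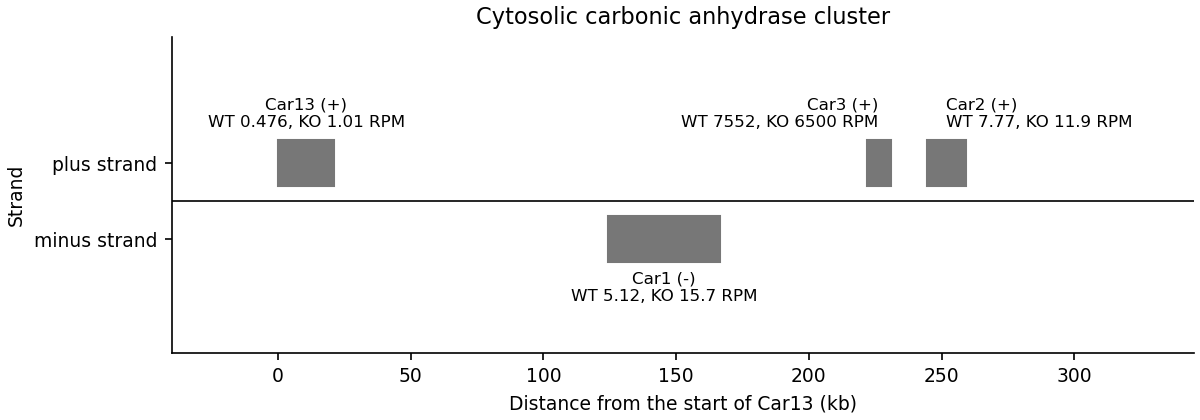
Positions of the 4 clustered genes in kb from the start of Car13 (x axis), with genes of the plus strand above the line and Car1 below it, with the mean RPM of each group (n = 4). Car3, at 7552 RPM in WT, lies between Car1 and Car2, which are at 5.12 to 15.7 RPM.

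The mitochondrial form Car5b (chrX:163976822-164027997, minus strand) was at 2.26, 1.67, 0.855 and 2.1 RPM in WT 1 to 4 and at 0.986, 1.68, 1.78 and 2.47 RPM in KO 1 to 4, from 6 to 18 reads each. The groups covered almost the same range, and the library with Xist was the highest of each. The relative log2 difference was -0.12 (SE 0.24, 95% interval -0.63 to 0.4, limma adjusted p = 0.99). At this level the added 1 RPM shrinks differences, and DESeq2 on recovered reads gave -0.11 with an SE of 0.46. A change beyond that interval could therefore also go unseen at this depth. Car5a, its liver counterpart, had no read in any library, where the floor of 3 reads stands for 0.628 RPM in the shallowest.

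Car8 (chr4:8143362-8239041, minus strand, overlapped by Gm11799 and Gm25355) lacks catalytic activity and in brain binds the inositol trisphosphate receptor. It had the smallest coefficient of variation of the tested carbonic anhydrases in KO. Its 4 KO values lay between 12.4 and 13.4 RPM, from 59 to 92 reads each, with a coefficient of variation of 3.46%, inside the WT range of 9.98 to 14.9 RPM. Counting error alone was wider than this KO range (exact 95% binomial interval 9.41 to 15.9 RPM in KO 2), so the small spread is not read as a trait of Car8. The relative log2 difference was -0.08 (SE 0.16, 95% interval -0.42 to 0.26, limma adjusted p = 0.906).

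The genes outside the list included 2 that were well measured. Car11, another relative without activity, was at 16.9, 14.2, 17.1 and 13.8 RPM in WT 1 to 4 and at 10.3, 10.1, 8.21 and 15 RPM in KO 1 to 4. All KO libraries except KO 4 lay below all WT libraries. The relative log2 difference was -0.62 (SE 0.18, 95% interval -1.01 to -0.24). Car11 did not pass, with a limma adjusted p of 0.2 for the unshifted difference of -0.5 (95% interval -0.88 to -0.11). In the 6 libraries without Xist the relative difference was -0.73 and the adjusted p 0.0909. Car7, a cytosolic form known from brain and muscle, was at 6.03 ± 1.48 RPM in WT and at 7.99 ± 1.29 RPM in KO (relative log2 difference 0.24, limma adjusted p = 0.37). Car6 had no read in WT and 1 or 2 reads in each KO library, and Car10 had 1 read in WT 4 and KO 4 only, all at or below the floor.

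**Figure D3:**
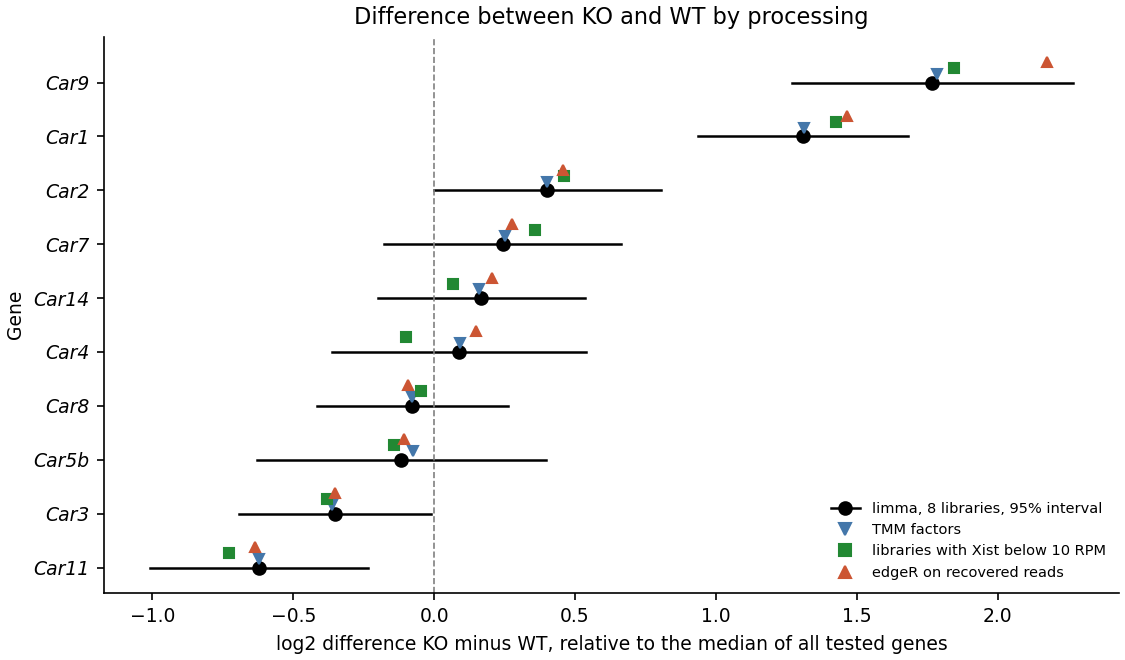
Log2 difference between KO and WT, relative to the median of all tested genes (x axis), for the 10 carbonic anhydrase genes that were tested (y axis). Black points and lines are limma estimates with 95% intervals over 8 libraries, fitted on the deposited scale and shifted by the median, and coloured symbols are 3 other ways to process the data. Car9 and Car1 lie apart from the rest in each, at 1.77 and 1.31 in limma.

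By level, Car3 stood first and Car14 second in both groups, without overlap with the gene below. Each gene is read by its own amplicon, with no length correction to make and with an unknown efficiency, so orders between genes are of RPM and not of molecules. In WT the order then ran Car11, Car8, Car2, Car4, Car7, Car1, Car9 and Car5b. In that order Car8 and Car2 did not overlap, nor did Car1 and Car9, while the other neighbours from Car11 to Car5b did. In KO, Car1 stood at rank 3 with 15.7 RPM and Car9 at rank 7 with 10.9 RPM, and from Car1 down to Car4 every neighbour overlapped with the next. Car9 overlapped with Car5b in WT, and in KO the lowest Car9 value of 7.89 RPM was above the highest Car5b value of 2.47 RPM.

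Car3 made up 98.5% ± 0.2 of the summed carbonic anhydrase RPM in WT and 97.7% ± 0.218 in KO (SD, n = 4 each), from 98.3% to 98.7% and from 97.5% to 98%. Without Car3, the other 14 genes summed to between 98.4 and 120 RPM in WT and between 126 and 171 RPM in KO. These ranges do not overlap on the deposited scale, but after TMM rescaling they do, at 110 to 124 RPM and 120 to 166 RPM. Car14 alone was 48% ± 2.07 of that remainder in WT and 44.8% ± 7.44 in KO, and Car1 and Car9 together came to 6.42 to 8.18 RPM in WT and 23.7 to 33.4 RPM in KO. In RPM, the called genes are therefore a small part of the family's reads.

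**Figure D4:**
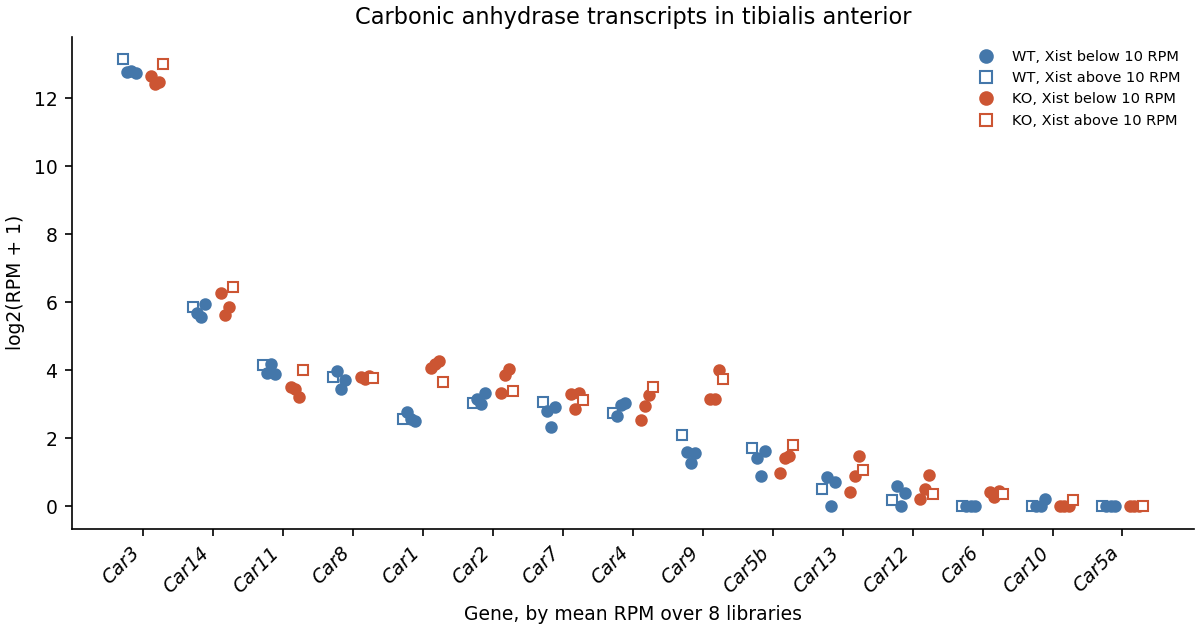
Level of 15 carbonic anhydrase genes as log2(RPM + 1) (y axis), ordered by mean RPM over 8 libraries (x axis). Points are WT (blue) and KO (red) libraries, and open squares are the 2 with Xist above 10 RPM. Car3 lies far above Car14, and the genes from Car11 to Car9 overlap in level.

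Genes that work with carbonic anhydrases were read from lists. None of the 6 tested bicarbonate transporters of 13 in the table passed in limma or edgeR, and none reached an unadjusted p under 0.05. The sodium bicarbonate cotransporter Slc4a4 was at 14.2 ± 3.73 RPM in WT and at 16.3 ± 2.11 RPM in KO, and Slc4a8, which exchanges bicarbonate and chloride with sodium, at 5.04 ± 2.68 and 6.15 ± 0.954 RPM. Of the 7 tested sodium-proton exchangers, which expel acid, none passed in either tool or reached that level, among them Slc9a2 at 29 ± 3.5 RPM in WT and at 36 ± 7.05 RPM in KO. The median relative log2 differences of these lists were -0.07 and -0.17, where that of all genes is 0.

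Of 4 tested monocarboxylate transporters and chaperones, none passed in limma or edgeR, and 1 was higher at an unadjusted p under 0.05. That was the lactate transporter Slc16a1, at 84.4 ± 16.5 RPM in WT and at 106 ± 8.01 RPM in KO (relative log2 difference 0.22, limma adjusted p = 0.266). The lactate exporter of glycolytic fibres, Slc16a3, was at 354 ± 26.5 and 300 ± 47.2 RPM (-0.37, adjusted p = 0.378). The 4 tested genes of histidine dipeptides, the proton buffers of muscle, had a median of -0.31 and none passed or reached an unadjusted p under 0.05. Carnosine synthase Carns1 was at 6.53 ± 0.901 RPM in WT and at 5.12 ± 1.01 RPM in KO, and Gadl1, which makes the precursor beta-alanine, at 3.6 ± 1.63 and 2.34 ± 0.398 RPM. The receptor Ptprg, whose outer part resembles a carbonic anhydrase, was at 23.4 ± 5.85 and 22.2 ± 9.19 RPM (-0.25, limma adjusted p = 0.849).

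The enzymes that consume bicarbonate had a summed RPM that was lower in each KO library than in any WT library. Their 9 genes summed to between 617 and 662 RPM in WT and between 458 and 578 RPM in KO. With TMM rescaling the sums were 627 to 692 RPM in WT and 401 to 562 RPM in KO. The median relative log2 difference was -0.23 over 8 tested genes. None passed in limma or edgeR, and at an unadjusted p under 0.05 2 were lower (3.07% of all genes), both subunits of mitochondrial propionyl-CoA carboxylase. Pcca was at 152 ± 26.8 RPM in WT and at 106 ± 19.2 RPM in KO (relative log2 difference -0.64, SE 0.16, limma adjusted p = 0.144). DESeq2 called it (adjusted p = 0.0051) and edgeR did not (adjusted p = 0.0536). Pccb was at 141 ± 11.8 and 117 ± 9.64 RPM (-0.4, SE 0.12, adjusted p = 0.3). All its KO libraries lay below all WT libraries, as in 1.61% of all tested genes. In the 6 libraries without Xist, Pcca passed (limma adjusted p = 0.0115) and was the only gene of this list to do so. That fit called 1.31% of all genes lower.

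HIF targets other than Car9 gave 2 calls higher and none lower among 25 tested, in limma and in edgeR. Over all tested genes limma called 0.523% higher and 0.28% lower. At an unadjusted p under 0.05, 12 of the 25 were higher and 1 was lower (13.1% and 3.07% of all genes). The 2 calls became 1 without WT 2, without WT 3 and without both replicates 3, and 4 with the Xist term and in the 6 libraries without Xist. The count of all genes called higher moved the same way, from 58 to 22, 13 and 7 with those omissions. It was 165 (1.49%) with the Xist term and 258 (2.32%) in the 6 libraries. Egln3, a prolyl hydroxylase that marks HIF for destruction, rose from 15.3 ± 5.68 to 79.2 ± 5.76 RPM, and P4ha1, a collagen prolyl hydroxylase subunit, from 30.5 ± 4.38 to 61.5 ± 16.6 RPM. The relative log2 difference of Car9, 1.77, lay between theirs, at 2.24 and 0.84. The median of the list was 0.23, with 18 of 25 above the median of all genes, and Kdm3a (0.6, limma adjusted p = 0.0799) and Stc2 (0.85, adjusted p = 0.0505) did not pass in limma with genotype alone or in edgeR. Both passed in limma with the Xist term (adjusted p = 0.0411 and 0.0365) and without the libraries with Xist (adjusted p = 0.0166 and 0.015), and Kdm3a in DESeq2 (adjusted p = 0.0497). Earlier results of these data had already shown this direction.

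**Figure D5:**
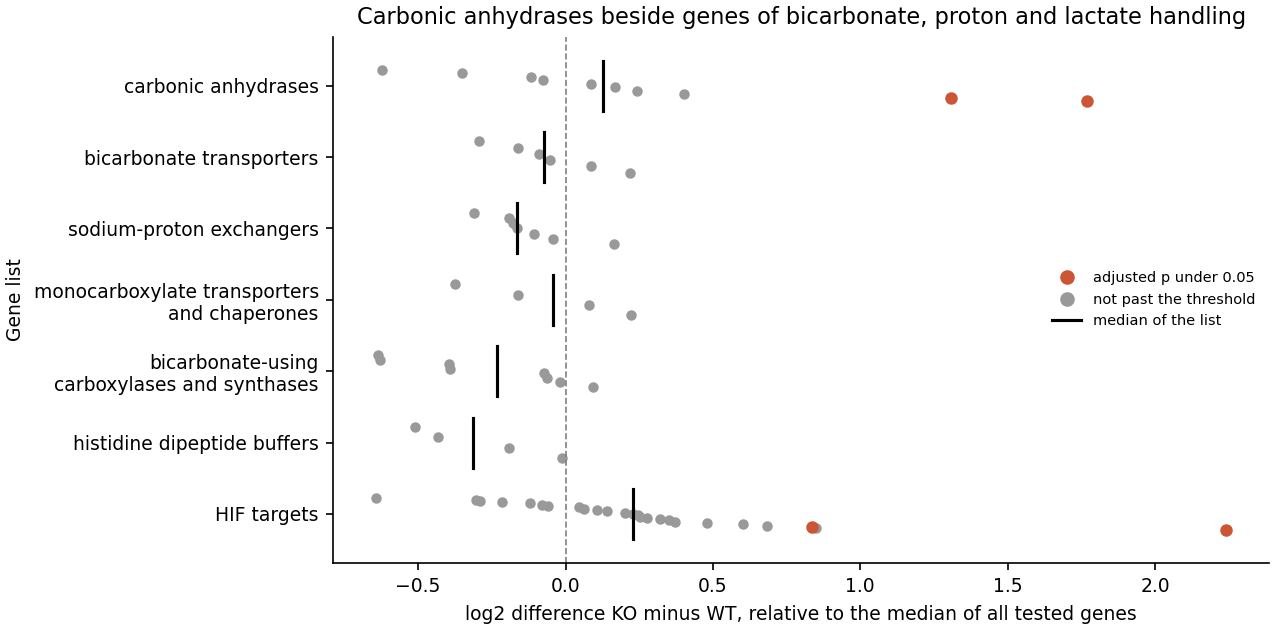
Log2 difference between KO and WT, relative to the median of all tested genes (x axis), for each tested gene of 7 lists (y axis). Red points passed limma's threshold, grey points did not, and black bars are list medians. Red points appear among the carbonic anhydrases, where Car1 and Car9 lie at 1.31 and 1.77, and among HIF targets.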

How the data were processed

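The deposited values were RPM, made by the authors with an Ion AmpliSeq Transcriptome Mouse panel, per the labels, and the file names 1 amplicon beside each gene. Transcriptome Analysis Console is the tool listed in the submitters' processing notes; aligner, build, filters and strand handling are not stated in the sources used. Columns were matched to libraries by the barcode in each label.

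All values were whole multiples of 1 read (tolerance 0.05 reads), which gave the totals. Without molecular identifiers, the exact binomial intervals and the floor of 3 reads describe counting error only. Every pair of replicates differed by more than sampling noise (smallest chi-square per degree of freedom 8.24).

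With limma 3.58.1 (R 4.3.3; genotype term, variance trend, two-sided, Benjamini-Hochberg), log2(RPM + 1) was compared for genes that reached 1 RPM in 4 libraries. On recovered reads edgeR 4.0.16 and DESeq2 1.42.0 were run. Steps were tested on simulated data. The other alternatives were pseudocounts, filters, TMM, quantile normalization, no variance trend, the replicate block, an Xist term, and omission of libraries; sums on the TMM scale were added after seeing the data.

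The genes, lists and alternatives were chosen with earlier results of these data known. Named from each list were up to 4 called members, the 2 uncalled of smallest p, and for marker lists the 3 most abundant; other markers and overlapping neighbours were named after their values were seen. Some genes that this rule names are not reported here. Figures were drawn with matplotlib 3.10.9.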

Additional observations from a re-analysis of the deposited data

How the results depend on the processing

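Car9 and Car1 were called in each of the 21 alternatives, with adjusted p of at most 0.0359 in the test of each fit. Their log2 differences, each on the scale of its own fit and not shifted by the median, were 1.13 to 2.19 and 1.02 to 1.56. Car2, Car3, Car4, Car7, Car11 and Car14 kept their direction without that shift and were never called. Car5b, at 0.00936, turned to -0.0707 with TMM factors, -0.112 with quantile normalization, -0.0983 in edgeR, -0.107 in DESeq2, -0.0184 in the libraries with Xist below 10 RPM and -0.183 without both replicates 3, and lay between -0.164 and 0.153 when 1 library was left out. Car8, at 0.0488, turned to -0.0738 with TMM factors, -0.0743 with quantile normalization, -0.0852 in edgeR, -0.086 in DESeq2 and -0.0648 without both replicates 3, and lay between -0.046 and 0.131 with 1 library left out. Relative to the median of all genes, which TMM, quantile normalization and both count tools bring near 0, Car5b and Car8 lay below 0 in the reported fit and in each alternative, between -0.261 and -0.000609 and between -0.143 and -0.00315. On that measure Car4, at 0.0876, turned to -0.1 in the libraries with Xist below 10 RPM and to -0.0591 without KO 4. Car2, Car3, Car7, Car11 and Car14 kept their direction on it.

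The count of all genes called higher and lower, 58 and 31, became 36 higher with no filter, 37 and 54 with TMM factors, 37 and 51 with quantile normalization, 37 and 55 in edgeR, 14 lower with no variance trend, 157 lower in DESeq2, 165 and 70 with the Xist term, 258 and 146 in the libraries with Xist below 10 RPM, and 7 and 2 without both replicates 3. With 1 library left out it ran from 13 (without WT 3) to 180 (without KO 4) higher and from 3 to 83 lower. The Sdhc difference ran from -710.6 to -637.1 RPM, each with p = 0.0571 by exact permutation, which 3 against 4 libraries cannot go below. Same-numbered libraries did not deviate together (correlations of -0.009, 0.08, -0.12 and -0.09), so the numbers were not read as pairs; with the replicate block 53 genes were called higher and 28 lower, Car9 and Car1 among them. Amplicon reads limit Car12 and Car13, at 10 reads or fewer per library, and Car5b, at 18 or fewer.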
